A study of Homo sapiens with 6 samples.

Results

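The genes for the protein components of the cytoplasmic ribosome were followed in RH36 cells, an established line of embryonal rhabdomyosarcoma (ERMS), after transient transfection of pre-miR-27a, a synthetic precursor that raises miR-27a. All probes whose gene name on the array was RPL or RPS with a number, with or without a final A, together with RPLP0, RPLP1, RPLP2 and RPSA, were taken. This gave 76 of the 30484 gene names on the array, carried by 194 of its 41000 probes. Of these genes, 46 code for proteins of the large subunit and 30 for proteins of the small subunit. Values were obtained for 193 of these probes (122 for the large and 71 for the small subunit) among the 36469 kept on the whole array. The remaining probe, 1 of those for RPS26, was flagged as not found on 2 arrays, and RPS26 keeps another probe. All 76 genes matched a RefSeq symbol. The rule used gene names and no measured value.

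The ribosome translates mRNA into protein, and its proteins hold the ribosomal RNA in shape, line the paths of the mRNA and of the nascent peptide, and form the acidic stalk that recruits elongation factors. Mammalian cells make them in nearly equal numbers, and the mRNAs are short, abundant and stable. Most of these mRNAs begin with a terminal oligopyrimidine (TOP) tract, a C followed by further C or T bases at the very start of the transcript, through which mTOR signalling regulates their translation rather than their amount.

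Both groups of arrays came from the same line, which is negative for the PAX3/FOXO1 translocation. The pre-control group (n = 3) received a negative control precursor and the pre-miR-27a group (n = 3) the miR-27a precursor, at 10 nM by the labels, which give 48 hours after transfection for the pre-miR-27a samples. The study's methods state another concentration and time, and which applies to these arrays was not settled. Each sample, labelled as a biological replicate, was hybridized alone with Cy3 on its own array. All results therefore describe 1 cell line after transient transfection.

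Each array held 43376 spots other than controls, and the number well above background ran from 30332 to 32064 in the pre-control group and was higher, 32161 to 33823, in the pre-miR-27a group. The slides stood apart in other measures too, with 1559 to 1750 spots not found and a median local background of 74.5 to 76 in the pre-control group, and 3487 to 4153 spots and 52.5 to 53 in the pre-miR-27a group. Each group had a slide to itself (slide 1 for pre-control, slide 2 for pre-miR-27a), and an effect of the slide cannot be told apart from one of the precursor in any value below. Of the markers set for a rhabdomyosarcoma line, DES, MYOD1, MYOG, CDH15 and CHRNA1 were well above background on all 6 arrays, and MYF5 gave no usable probe. Of the markers for other cell types, EPCAM, CDH1, PTPRC and PECAM1 were below that level on every array, KRT5 gave no usable probe, CDH5 was above background on 1 pre-control and 2 pre-miR-27a arrays, and CD3E was above background on all 6.

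The transfected sequence and the start of several ribosomal protein mRNAs show what was delivered and what these mRNAs have in common. The mature miR-27a, taken from RefSeq (GRCh38.p14, chr19:13836447-13836467, minus strand), is printed with its seed, bases 2 to 8, in capitals.
hsa-miR-27a-3p: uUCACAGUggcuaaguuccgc

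The next lines give the genomic sequence around the annotated transcript start of 7 of the genes described below, in the direction of transcription, with the 10 bases before the start and the first 20 bases of the transcript. Capitals mark the unbroken run of C and T that begins with a C at the first transcribed base. The genes are RPL18 (chr19:48619159-48619188, minus strand), RPS19 (chr19:41860245-41860274, plus), RPL35 (chr9:124861938-124861967, minus), RPS14 (chr5:150449720-150449749, minus), RPLP0 (chr12:120201092-120201121, minus), RPS6 (chr9:19380217-19380246, minus) and RPL13 (chr16:89560672-89560701, plus), all on GRCh38.p14.
RPL18: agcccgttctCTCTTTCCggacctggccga
RPS19: ccccgtcgttCCCTTTCCCCTggctggcag
RPL35: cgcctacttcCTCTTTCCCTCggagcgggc
RPS14: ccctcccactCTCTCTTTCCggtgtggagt
RPLP0: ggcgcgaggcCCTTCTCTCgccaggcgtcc
RPS6: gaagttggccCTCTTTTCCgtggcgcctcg
RPL13: gggccgcttcCTTTCCgctcggctgttttc

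The runs are 6 to 11 bases long and each is broken by a G. The search asked for a C at the first transcribed base followed by at least 4 bases that were C or T, on the transcribed strand only. RefSeq promoters were matched for 61 of the 76 genes, and 46 of them (75.4%) had such a start, against 5.14% of all 27305 genes with a promoter and 5.97% of the other protein-coding genes. Translation factors and other mRNAs known to carry the tract had it in 12 of 13 genes, ribosome biogenesis factors in 3 of 44, and mitochondrial ribosomal proteins in 6 of 69. A match is a description of these letters and does not show a regulated mRNA. The median log2 fold change was -0.049 for the 46 genes with such a start and 0.0074 for the 15 without.

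At the level of the gene, no ribosomal protein gene passed the test. Each gene was represented by its probe with the highest mean signal, and fold changes are given on the log2 scale as pre-miR-27a over pre-control (difference of the group means). With limma and Benjamini-Hochberg adjustment over all kept probes at 0.05, 0 of 76 genes were higher and 0 were lower. Of all 27328 genes, 7.4% passed (3.07% higher and 4.33% lower), but few bright probes did. The brightest probe lay at a mean log2 signal of 16 or more for 68 of the 76 genes. Among other probes at 17 and over, 1 of 80 was lower and 0 higher. At 16 to 17, 4 of 364 were lower and 4 higher. At an unadjusted p under 0.05, 7 were lower and 1 was higher, against 23.8% of all genes in either direction. That count depended on the variance model. With a variance trend and robust estimation in limma, 22 of the 76 reached that level, a count not made over all genes in that fit. In bulk RNA, fewer cells of a kind and less RNA per cell cannot be told apart.

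Fold changes by gene were small after quantile normalization, and larger under another scaling given below. Among the genes named here, fold changes ran from -0.26 for RPL8 to 0.22 for RPL27A, and the 76 genes had a median of -0.033 beside -0.037 over all genes. After quantile normalization the 95% interval of the fold change lay wholly within 1.5-fold in either direction for 75 of 76 genes (98.7%), against 46.0% of all genes. The median standard error was 0.078 for these genes and 0.14 over all genes. Standard errors fell with signal over the whole array, and at a signal of 17 and over the median was 0.077 for ribosomal protein probes and 0.081 for other probes.

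**Figure D1:**
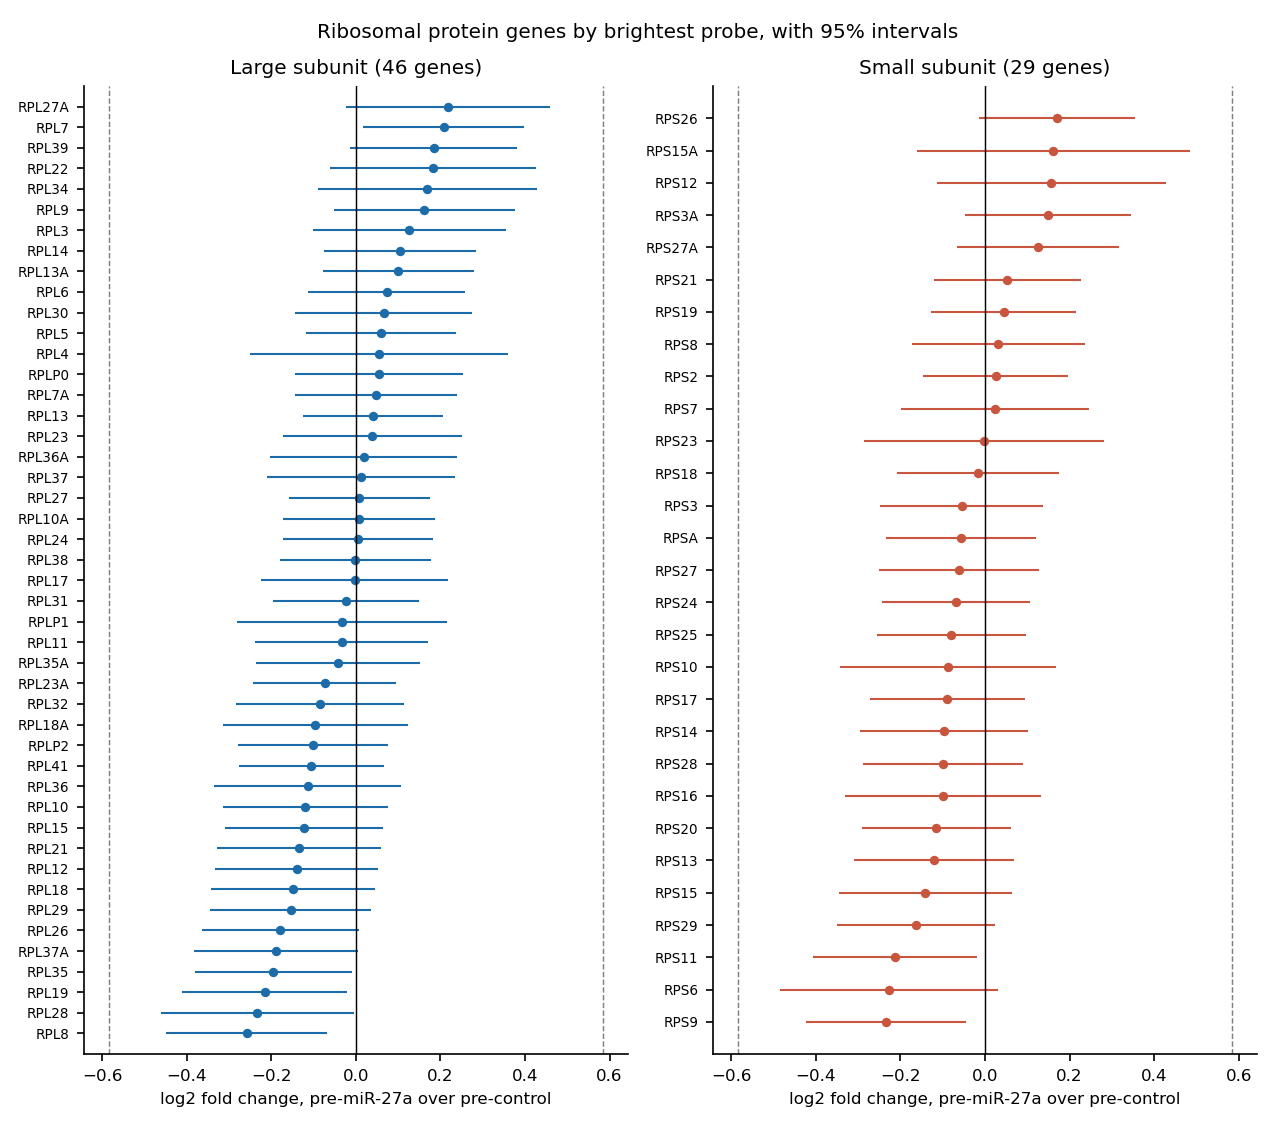
Log2 fold change (x axis, pre-miR-27a over pre-control) of each ribosomal protein gene by its brightest probe, with 46 large-subunit genes on the left and 29 of the small-subunit genes on the right; points are fitted values, horizontal lines their 95% intervals over 6 arrays, and dashed lines mark 1.5-fold. Every interval drawn stays between the dashed lines, and RPSA, shown among the small-subunit genes, had a signal below the limit on all arrays.

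The large and the small subunit were then set beside each other. The 46 large-subunit genes had a median log2 fold change of -0.0023, and 24 of them were lower in pre-miR-27a arrays. The 30 small-subunit genes had a median of -0.065, with 20 lower. Over the whole array 56.3% of genes and 53.6% of kept probes were lower. Taking every probe, 63 of 122 large-subunit probes and 52 of 71 small-subunit probes were lower, with medians of -0.0033 and -0.087. With 1 array left out at a time, the gene median ran from -0.030 to 0.013 for the large and from -0.082 to -0.054 for the small subunit.

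The subunits were also compared array by array. Each array was given the median deviation of its genes from their own mean over the 6 arrays, and the value for the small subunit was subtracted from that for the large. This gave 0.015, -0.032 and -0.027 on the pre-control arrays and 0.032, -0.0037 and 0.014 on the pre-miR-27a arrays. The lowest pre-miR-27a value lay below the highest pre-control value, so the groups overlapped, and the spread between replicate arrays was 0.022 (SD). Within pairs of arrays with the same replicate number, the pre-miR-27a value was higher by 0.017, 0.028 and 0.042 for replicates 1, 2 and 3. The difference between the subunits carries no test.

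The genes were also grouped by role, using lists written with earlier results of these arrays known. RPLP0, RPLP1 and RPLP2 form the P stalk, which contacts elongation factors. RPLP0, often used as a reference transcript, read 17.90, 17.90 and 17.87 on pre-control arrays and 18.02, 17.96 and 17.84 on pre-miR-27a arrays, in log2 signal. Its groups overlapped, with a log2 fold change of 0.055 (95% interval -0.14 to 0.25). RPLP1 had a fold change of -0.033 and RPLP2 of -0.10, and neither passed the test (adjusted p = 0.883 and 0.445 with limma).

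RPL5 and RPL11 bind 5S ribosomal RNA, and outside the ribosome the same complex restrains MDM2, the ubiquitin ligase of p53. RPL5 read 17.19, 17.08 and 17.16 on pre-control arrays and 17.19, 17.21 and 17.20 on pre-miR-27a arrays, a log2 fold change of 0.058 (95% interval -0.12 to 0.24). The pre-miR-27a arrays were the higher ones by a margin smaller than the spread among pre-control arrays. RPL11 had a fold change of -0.034 with overlapping groups. Of 9 genes whose proteins form the wall and rim of the peptide exit tunnel, 6 were lower and 3 higher with a median of -0.023, and 0 passed the test.

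In the small subunit, RPS6 is the ribosomal substrate of S6 kinase downstream of mTOR. It read 17.61, 17.57 and 17.56 on pre-control arrays and 17.42, 17.47 and 17.16 on pre-miR-27a arrays. The groups did not overlap, and replicate 3 of the pre-miR-27a group was the lowest. The log2 fold change of -0.23 (SE 0.104) did not pass the test (adjusted p = 0.251 with limma). RPS27A, made as a fusion with ubiquitin, had a fold change of 0.12 (SE 0.077, adjusted p = 0.386).

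Among 14 genes of the small-subunit head, 11 were lower with a median of -0.088. Among 14 genes mutated in Diamond-Blackfan anemia, 10 were lower with a median of -0.065, where 56.3% of all genes were lower. None of either list passed the test. RPS14, whose loss marks the 5q- form of myelodysplasia, had a fold change of -0.098 by its brightest probe. Another of its probes gave -0.46 (SE 0.132, adjusted p = 0.0992 with limma). It passed in 1 of 8 alternative settings, 75th percentile scaling (-0.59, adjusted p = 0.0494). RPSA, which also serves as a laminin receptor precursor, had 1 probe, and since no array had it well above background, no fold is given for it.

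Ribosomal protein probes lay mostly at the top of the signal range. The signal of a probe depends on its sequence and place in the mRNA as well as on RNA amount, so the following counts describe signals and not abundance. Of the 100 brightest probes 42 were ribosomal protein probes, of the 200 brightest 75, of the 500 brightest 119 and of the 1000 brightest 148. The brightest probe had a mean log2 signal of 16 or more for 68 of 76 genes. Only 3 probes, RPSA and a pair of 6 for RPL10, were not well above background on any of the arrays, whereas the other 190 were well above it on every array.

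The dimmest and the brightest genes were described alike. RPL19, RPL13 and RPLP0 had the highest signals of the large subunit, with fold changes of -0.22, 0.040 and 0.055. RPS28, RPS27 and RPS2 had those of the small subunit, with -0.099, -0.061 and 0.025. The lowest signals among the genes above background belonged to RPL22, RPL36 and RPL29 (0.18, -0.11 and -0.15) and to RPS9 and RPS15A (-0.23 and 0.16). None of these passed the test, at either end of the signal range.

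The top of the range carries a limit of its own. The brightest RPS2 probe had the value 18.10 on 5 of the 6 arrays and 18.02 on pre-control replicate 3, since quantile normalization gives probes of the same rank the same value on every array. A change of such a probe that does not alter its rank cannot be seen after this step. In addition, 165 of the 193 probes (85.5%) were read from the low-gain scan on all 6 arrays and scaled up by the image analysis, against 4.21% of other probes, and none was saturated.

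**Figure D2:**
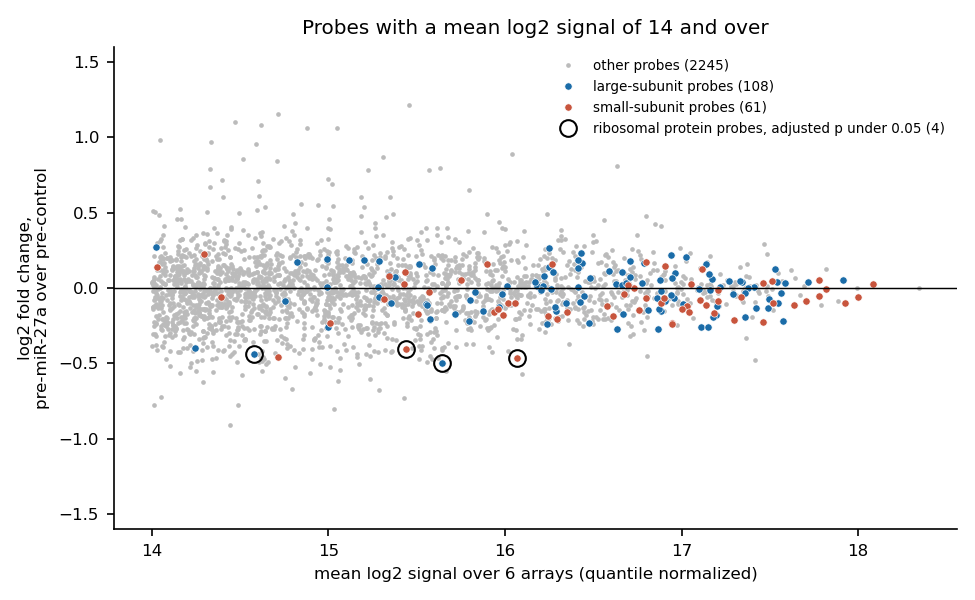
Log2 fold change (y axis, pre-miR-27a over pre-control) against mean log2 signal over the 6 arrays (x axis, quantile normalized) for probes with a mean of 14 and over: 2245 other probes in grey, 108 large-subunit probes in blue and 61 small-subunit probes in red, with a ring around the 4 ribosomal protein probes drawn with an adjusted p under 0.05. Above 17 the ribosomal protein probes are 56 of 136 and lie close to 0, and the 4 ringed probes lie below 0 at signals of 14 to 17.

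Among single probes, 6 of 193 were lower in pre-miR-27a arrays and 0 were higher (limma, adjusted p under 0.05), beside 3.88% lower and 3.95% higher over all kept probes (7.83% in either direction). The share of 6 in 193 was thus near the background for lower probes. Of the 171 probes at a signal of 14 and over 5 were lower and 0 higher. Of all 2416 probes that bright, 51 were lower and 31 higher (3.39% in either direction). At an unadjusted p under 0.05, 25 of the 193 were lower and 3 higher, beside 4799 lower and 4238 higher of all 36469 kept probes. With a variance trend and robust estimation 61 of the 193 reached that level, a count not made over all probes in that fit. The values of the groups did not overlap for 60 probes that were lower (31.1%, against 17.8% of all kept probes) and for 27 that were higher (against 14.8%). When any 1 of the 6 arrays was left out, 0 probes passed, with 14 to 27 at an unadjusted p under 0.05. That level was not counted over all probes with an array left out. The fold changes of the 6 probes stayed negative in these fits, with limma adjusted p from 0.0573 to 0.132, and on the whole array 0 to 1276 probes passed in place of 2856. Of the 6 probes, 5 are described here because they passed, and none of the 6 is the brightest probe of its gene. Positions are those of the array files on hg18 and span introns where the probe crosses a splice junction.

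RPL18 is a protein of the outer surface of the large subunit. Its probe A_24_P356721 (chr19:53812438-53812864, minus strand) read 15.92, 15.89 and 15.87 on pre-control arrays and 15.42, 15.34 and 15.43 on pre-miR-27a arrays. The groups did not overlap, and the values within each lay close together. The log2 fold change was -0.50 (SE 0.0714, adjusted p = 0.0224), and that of the brighter RPL18 probe was -0.15 (adjusted p = 0.312).

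RPS19 is the gene most often mutated in Diamond-Blackfan anemia. Its probe A_23_P119130 (chr19:47056705-47057029, plus strand) read 16.25, 16.38 and 16.28 on pre-control arrays and 15.87, 15.83 and 15.80 on pre-miR-27a arrays, a log2 fold change of -0.47 (SE 0.076, adjusted p = 0.0278). Its brighter probe, 366 bases downstream by genomic start, read 17.47, 17.53 and 17.46 against 17.53, 17.52 and 17.55, a fold change of 0.044 (adjusted p = 0.751). The groups overlapped at the brighter probe and were apart at the other.

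The other 3 described are those of RPL35 at the exit tunnel, RPS28 in the small-subunit head and RPS2 at the mRNA entry. The RPL35 probe A_32_P72940 (chr9:126663615-126664028, minus strand) read 14.82, 14.90 and 14.66 against 14.38, 14.35 and 14.34, a log2 fold change of -0.44 (SE 0.0889, adjusted p = 0.0439). The RPS28 probe A_24_P40010 (chr19:8292404-8292549, plus strand) read 15.72, 15.64 and 15.57 against 15.30, 15.20 and 15.22, a fold change of -0.41 (SE 0.0795, adjusted p = 0.0408). In each the groups were apart, while the brightest probes of these genes gave -0.20 and -0.099. The RPS2 probe A_24_P919460 (chr16:1952676-1952735, minus strand) was dimmer, at 9.95, 9.92 and 10.06 against 9.53, 9.32 and 9.54, a fold change of -0.51 (SE 0.0968, adjusted p = 0.0381). It is listed under a transcript record other than the RPS2 mRNA that its brightest probe is listed under, and 1 alternative setting ended its call.

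**Figure D3:**
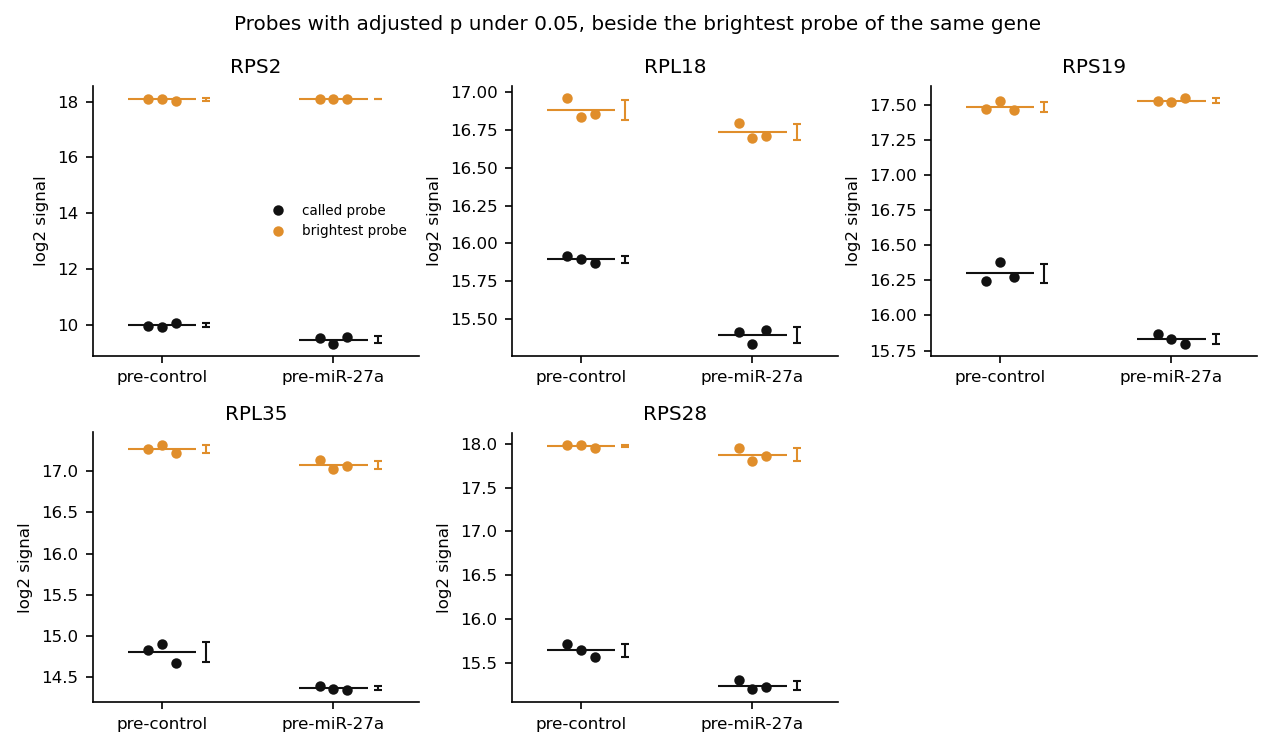
Log2 signal (y axis, quantile normalized) on each of the 6 arrays for 5 ribosomal protein probes with an adjusted p under 0.05 (black) and for the brightest probe of the same gene (orange); points are arrays, horizontal lines group means and the bars beside them the SD over 3 arrays. The black points fall by 0.41 to 0.51 between the groups without overlap, and the orange points of RPS2 and RPS19 stay level.

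The probes of 1 gene could thus differ from each other, and the genes with the widest range of fold changes among their probes were described by rule. RPL37 had a dim probe, listed under a transcript other than its mRNA, that read 7.83, 6.75 and 7.60 on pre-control arrays and 8.74, 8.26 and 8.47 on pre-miR-27a arrays. Its groups were apart, with pre-control replicate 2 the lowest of all. The log2 fold change of 1.09 (SE 0.308) did not pass the test (adjusted p = 0.0941), but passed when replicate numbers were blocked (adjusted p = 0.0406). With normexp background correction it was 0.70 and passed (adjusted p = 0.0401), and it was 0.77 without pre-control replicate 2. The other RPL37 probes gave -0.028 and 0.012.

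RPL34 had 6 probes, from -0.48 (SE 0.105, adjusted p = 0.0539) at the dimmest to 0.26 (adjusted p = 0.303). The dimmest RPL34 probe passed in 4 of 8 alternative settings, with limma adjusted p from 0.0278 to 0.0616 over the 8. RPL22 had 4 probes from 0.031 to 0.46, RPL15 had a pair at -0.12 and 0.27, and RPL21 had 14 probes from -0.22 to 0.19, none of which passed. RPL10 had 6 probes, and the 4 above background gave -0.15 to -0.064. Ribosomal protein genes have many processed pseudogenes, and 9 probes, 5 of them for RPL21, lie in the array files on another chromosome than the gene in RefSeq. Which copy such a probe reads is uncertain, and none of the 9 passed the test.

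Within most genes compared, the fold change was lower toward the 5′ end of the mRNA, a comparison that was made after the values had been seen. For 45 genes, a pair of probes listed under the same mRNA began at least 60 bases apart in the genome, and the probe nearest the 5′ end was set against the one nearest the 3′ end. The 5′ probe had the lower fold change in 34 genes (75.6%), 22 of 31 in the large subunit and 12 of 14 in the small. The median fold change was -0.10 at the 5′ probe and -0.0037 at the 3′ probe. At the 5′ end 4 probes passed the test, those of RPS19, RPL18, RPS28 and RPL35 described above, and at the 3′ end 0. The pair for RPL10 includes a 3′ probe that was above background on no array, and without it the 5′ probe was lower in 33 of 44 genes, with a median difference of -0.077.

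Over other genes the shares were closer to even. Of 3803 other genes with both probes well above background on all arrays, a filter not applied to the 45, the 5′ probe was the lower one in 47.9%. Of the 114 of them with both probes at a mean log2 signal of 14 and over, it was the lower one in 53.5%. The probes that passed as lower numbered 122 at the 5′ and 89 at the 3′ end over the 3803 genes. Over the 114 they numbered 4 and 0, the same counts as over the smaller set of 45 ribosomal protein genes. Those that passed as higher numbered 330 at the 5′ and 129 at the 3′ end over the 3803 genes. Over the 114 they numbered 4 and 1, and over the 45 ribosomal protein genes 0 at either end. The median difference, 5′ minus 3′, was -0.070 for ribosomal protein genes, 0.014 for the 3803 genes and -0.0072 for the 114. Genes are not replicates and these shares carry no test.

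The difference was also followed array by array. For each gene the difference between its 5′ and 3′ signal was centred on its mean over the 6 arrays. The median over the 45 genes was 0.022, 0.055 and 0.043 on pre-control arrays and -0.061, -0.030 and -0.042 on pre-miR-27a arrays, so the groups did not overlap. Leaving out each array in turn left 31 to 32 of 45 genes with the lower 5′ probe, and the other settings left 31 to 34 (of 44 genes in 2 of them).

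The 5′ probe was the dimmer of the pair in 29 of 45 genes, so signal moved with position. Where it was dimmer, it had the lower fold change in 21 of 29 genes, and where it was brighter, in 13 of 16, RPL10 included. With the signals of both within 1 log2 unit it was lower in 15 of 21 genes, and with both read from the low-gain scan on all arrays, in 26 of 34. The largest differences belonged to RPL34 (-0.48 at the 5′ and 0.26 at the 3′ probe), RPS19 (-0.47 and 0.044) and RPL15 (-0.12 and 0.27). The opposite order was widest in RPL21 (0.19 and -0.13), RPL7 (0.21 and -0.086) and RPL31 (-0.023 and -0.27). RNA integrity of each sample was not given beyond the minimum set for all of them, and the part of RNA quality or of labelling from the 3′ end in this order was not tested.

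**Figure D4:**
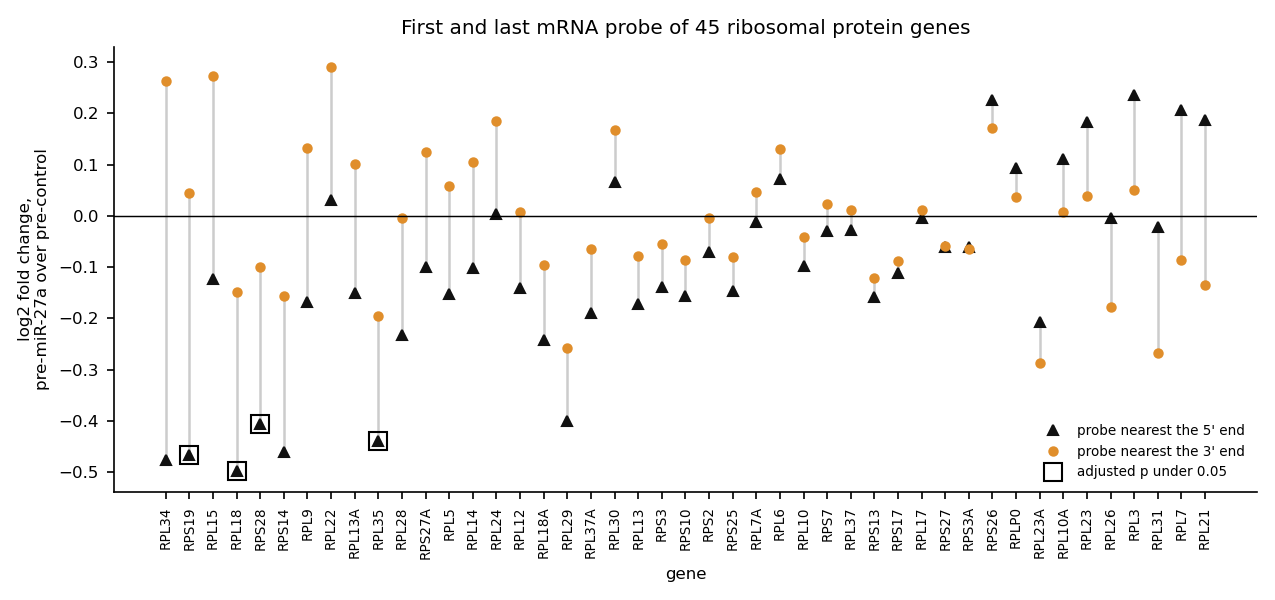
Log2 fold change (y axis, pre-miR-27a over pre-control) at the probe nearest the 5′ end (triangles) and nearest the 3′ end (circles) of 45 ribosomal protein genes (x axis, ordered by the difference), with squares around the 4 probes with an adjusted p under 0.05. In 34 genes, RPL10 included, the triangle lies below the circle.

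Chromosome 19 held 12 of the 76 genes and 3 of the 5 probes described above (RPL18, RPS19 and RPS28), a count also made after the values had been seen. The median fold change of these 12 genes by their brightest probe was -0.13, with 10 lower, while that of all 986 genes placed on chromosome 19 was -0.12 and that of the 91 of them at a signal of 14 and over was -0.079. The 64 ribosomal protein genes on other chromosomes had a median of -0.0026, with 34 lower. The differences between these sets were not tested.

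The direction of the whole group depended on how the arrays were scaled. When the 75th percentile of every array was set equal and no quantile normalization was done, 73 of 76 genes were lower, the below-background RPSA among them. The sign turned from higher to lower in 29 genes, so that RPL22, RPL27A and RPL7 alone stayed higher. Most other bright probes were lower as well in that scaling, 75 of 80 at a signal of 17 and over and 315 of 364 at 16 to 17. The median over the 193 probes became -0.22, that of all kept probes moved from -0.022 to -0.095, and that of other probes at a log2 signal of 14 and over became -0.16. In that scaling 3 genes passed the test at their brightest probe, all lower, among them RPL28 (-0.42) and RPL8 (-0.43). Over the whole array 8.93% of probes passed. The median over the ribosomal protein genes was -0.21. An unadjusted p under 0.05 was reached by 33 of them, a count not made over all genes in that scaling. The order of the subunits kept its size, at -0.19 for the large and -0.25 for the small.

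The array carries probes for spike-in control transcripts, which do not come from the cells. Scaled by the 75th percentile, the brightest spike-in differed by -0.12 between the groups, the next by 0.042 and the other 6 by 0.15 to 0.38, so that the brightest were the lowest relative to the rest. The brightest read 17.78, 18.03 and 17.97 on pre-control arrays and 17.75, 17.81 and 17.87 on pre-miR-27a arrays, so its groups overlapped. They were apart only for the spike-ins named E1A_r60_a20 and E1A_r60_a22. Pre-control replicate 1 was the lowest pre-control array for every spike-in. Mean differences between the groups thus also varied among transcripts that the cells did not supply. Their part in the lower values of ribosomal protein genes under this scaling was not tested.

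**Figure D5:**
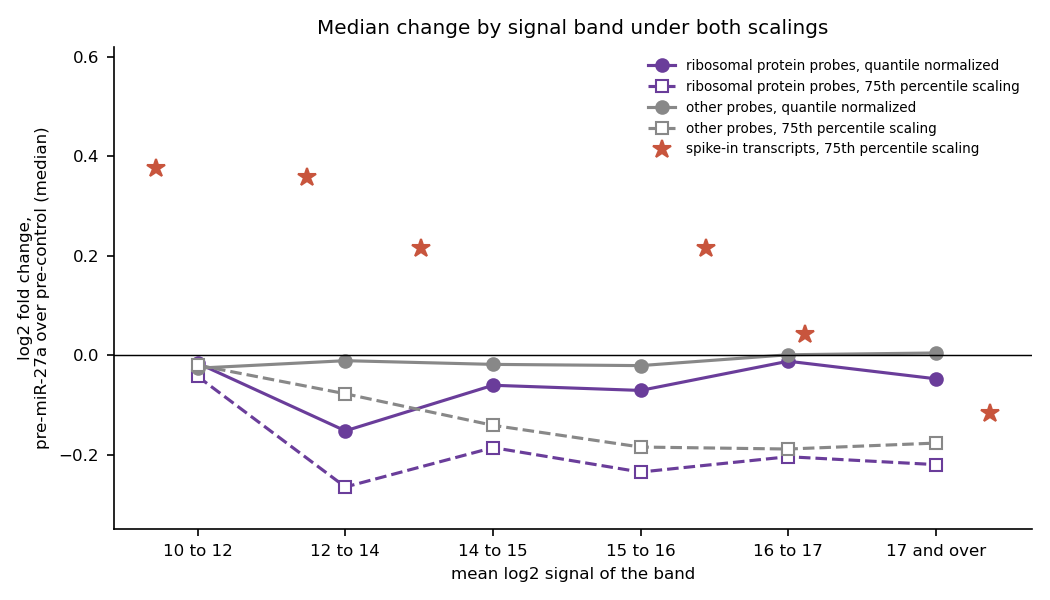
Median log2 fold change (y axis, pre-miR-27a over pre-control) in bands of mean log2 signal (x axis) for ribosomal protein probes (purple) and other probes (grey), quantile normalized (filled circles) and scaled by the 75th percentile (open squares); stars are the 6 spike-in transcripts with a signal of 10 and over under the second scaling, placed at their own signal. Open squares lie near -0.2 in both sets from 15 upwards, filled circles of other probes lie near 0, and the stars fall from 0.38 to -0.12 with signal. The dimmer spike-ins E1A_r60_a107 and E1A_r60_a135, not drawn, differed by 0.15 and 0.24, so the fall holds for the drawn range only.

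Other genes of the translation machinery were described from lists made by function, beside the 3.07% of all genes that were higher and the 4.33% that were lower. Of 11 paralogs and ribosomal protein genes outside the naming rule, 1 was lower and the median was 0.0042. That gene was RPL3L, the paralog of RPL3 made in striated muscle, with a log2 fold change of -0.49 (SE 0.0824, adjusted p = 0.0405), in which 1 pre-miR-27a array was missing. Of 19 translation factors and other mRNAs known to carry the TOP tract, 1 was higher and 0 lower with a median of 0.011, and this was EIF3S6, a subunit of the initiation factor eIF3 now named EIF3E (0.45, SE 0.0861, adjusted p = 0.0393).

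Of 49 ribosome biogenesis factors, 2 were higher and 2 lower, with a median of 0.028, a share of calls near that of all genes (7.4% in either direction). RIOK1, a kinase of late small-subunit maturation, was higher by 0.67 (SE 0.127, adjusted p = 0.0381), as was NOL14, a nucleolar factor of the small subunit, by 0.52 (SE 0.0858, adjusted p = 0.0391), in which 1 pre-miR-27a array was also missing. ITGB4BP, now EIF6, which keeps the large subunit from joining early, was lower at -0.44 (SE 0.0762, adjusted p = 0.0324), as was NOLA2, a component of box H/ACA particles, at -0.39 (SE 0.0809, adjusted p = 0.0476).

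The proteins of the mitochondrial ribosome are coded by other genes, of which 76 were measured. With 2 lower, 0 higher and 62 of 76 values below 0, their median was -0.13, beside -0.033 and 44 of 76 for the cytoplasmic genes. Over all genes 56.3% of values were below 0. The 2 were MRPL4 (-0.67, SE 0.0767, adjusted p = 0.0181) and MRPL28 (-0.49, SE 0.0738, adjusted p = 0.0246). Their median mean signal was 13.5 against 17.1 for the cytoplasmic genes, and the difference between the families was not tested.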

How the data were processed

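Total RNA of 6 samples was hybridized to 1-colour (Cy3) whole human genome arrays. The authors deposited the background-subtracted intensity of every spot, with flags (other values), from Feature Extraction 10.5.1.1, with no normalization across arrays. A table of normalized log2 values (33169 probes), also deposited, served as an alternative. The number of per-sample columns left out was 0.

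Here, control spots were left out, log2 intensity was quantile normalized, spots not found were set to missing, replicate spots were averaged and probes missing on at most 1 array were kept. Groups were compared with limma 3.58.1 under R 4.3.3, with the data.table package (1.17.8) to read files, Benjamini-Hochberg adjusted over all kept probes at 0.05. SAM, named in the study's methods and described as paired in its results, was not run. The script was tested on simulated data. The number of arrays limits the precision, and with 3 arrays a group the smallest two-sided exact permutation p is 0.1. P-values set the difference between groups against the spread between these samples, with variances moderated over all probes. The main fit did not pair the arrays by replicate number, so its standard errors, intervals and p-values leave any pairing out. A fit with replicate numbers blocked is given below.

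The members and lists were chosen with earlier results of these data known. Named genes are those that passed by brightest probe, the 3 brightest and 3 dimmest of each subunit, up to 8 with probes farthest apart, 10 by role, and up to 3 called genes of each further list. NOLA2, the probes that passed and the genes named by 5′ and 3′ difference or by scaling were added after their values were seen. The values of 1 gene are not reported here, and counts and medians include it. Probes are on hg18, sequences on GRCh38.p14.

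After group means were removed, arrays with the same replicate number correlated at 0.40, 0.46 and 0.41 over 31717 probes, and arrays with different numbers at -0.27 to -0.12. On this basis the replicate numbers, which come from the labels, pair the arrays. They are also the array positions on each slide, and replicate and position cannot be told apart.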

Additional observations from a re-analysis of the deposited data

How the results depend on the processing

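Under 75th percentile scaling 10 probes and 3 genes passed the test, the large-subunit median was -0.19, the small-subunit median -0.25 and the median of probes at a signal of 14 and over -0.22. With normexp background correction 10 probes (9 lower and 1 higher, of RPL37) and 1 gene passed, and with a variance trend and robust estimation 11 probes and 2 genes. With a filter on probes well above background, with the authors' deposited log2 values and with the mean of all probes of a gene, 1 gene passed in each. The small-subunit median was -0.085 with the deposited values, and with the mean of all probes the medians were -0.031 for the large and -0.099 for the small subunit. Leaving out 1 array at a time, 0 probes passed in each case, and the large minus small difference ran from 0.038 to 0.072 beside 0.063 with all arrays. With the replicate block 7 probes and 0 genes passed, and RPL37 was the probe gained. The share of all probes that passed also rose, from 7.83% in the main fit to 14.9% with the block. It was 12.9% with the filter on probes well above background and 10.1% with the deposited values. With normexp correction it was 9.67%, with the variance trend 9.26% and under 75th percentile scaling 8.93%. The large minus small difference stayed above 0 in all settings run. Setting outlier spots to missing, an alternative chosen after seeing the data, and lifting the filter on dim spots left 6 probes and 0 genes. The causes of these shifts were not tested. Quantile normalization hides changes that keep a probe's rank among the brightest, and 3 probes below background give no level.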
